A study of Mus musculus with 6 samples.

Results

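Glutamate uptake and the glutamine cycle were read through 8 genes chosen by name from earlier results of these data, all 8 of which were present among the 53379 genes of the count table and passed the filter on low counts. They are the plasma membrane carriers Slc1a1, Slc1a2, Slc1a3 and Slc1a4, the glutamine synthetase gene Glul, the glutamine carrier Slc38a3, the mitochondrial glutamate carrier Slc25a18 and the cystine-glutamate exchanger Slc7a11. RNA of dissected cortex from C57BL/6 mice at postnatal day 0 was sequenced in bulk from 3 samples heterozygous for Npas3 (Npas3+/-) and 3 wild-type (WT) samples. The labels name no treatment and no other allele, and do not say how the Npas3 allele was made. Nor do they state that each replicate is a separate animal, and the p-values therefore cover the spread among these 6 libraries alone, which may be technical.

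Released glutamate is cleared from the extracellular space by sodium-driven carriers of the Slc1 family, most of it by astroglia. Inside astroglia glutamine synthetase joins ammonia to glutamate, the glutamine leaves through carriers such as Slc38a3, and neurons take it up and turn it back into glutamate. In the newborn cortex astrocytes are only beginning to form, radial glia already express Slc1a3, and Slc1a2 is known to increase as astrocytes mature after birth.

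Total counts ran from 67378231 to 87811574 per library, and the members had 166 to 19753 counts in a library. Npas3, the targeted gene, stood at 15.0, 14.1 and 8.61 CPM (counts scaled to library size) in Npas3+/- replicates 1 to 3 and at 23.4, 28.4 and 25.7 CPM in WT, so the 2 groups did not overlap. Npas3+/- replicate 2 was the only library with Xist at a high level (3670 CPM, against 2.02 CPM or less elsewhere). A score of striatal markers, the mean centred log2 CPM of 13 genes, stood at 1.12, 1.46 and -0.58 in the WT libraries, in replicate order, and at -1.23, -1.34 and 0.56 in the Npas3+/- libraries. The libraries thus differed in striatal RNA within each genotype. In bulk RNA, fewer cells of a type and less RNA per cell cannot be told apart.

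Of the 5 members taken here as astroglial, Slc1a2, Slc1a3, Slc38a3 and Slc25a18 had lower mean levels in Npas3+/- cortex, at 73.2%, 77.2%, 78.1% and 74.0% of the WT mean, while Glul stood at 102%. The other members, Slc1a1, Slc1a4 and Slc7a11, which are not all confined to neurons, stood at 112%, 105% and 107%. The count of lower members among the 5 depends on which genes are taken as astroglial. Over all 8 members 4 were lower and 4 higher. In edgeR's quasi-likelihood test with Benjamini-Hochberg adjustment over all 21244 genes tested, 0 of the 8 members passed, where 0.0377% of all genes did and 0.00941% passed as lower. At an unadjusted p under 0.05 there were 3 members, all lower (Slc1a2, Slc1a3 and Slc38a3), where 5.84% of all genes were lower at that level. In these 3 members every Npas3+/- value lay below every WT value, which held for 9.18% of all genes. DESeq2 called 2 of the 8 members, Slc1a2 and Slc38a3, both lower, beside 1.99% of all genes in either direction and 0.957% lower. The count of 3 members at an unadjusted p under 0.05 was 1 with a glial marker score as a covariate (Slc1a2) and 2 with a striatal score (Slc1a2 and Slc38a3). The share of all genes at that level is not given for these 2 fits, so the change in count cannot be read as particular to the members.

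Promoter sequences are shown for 3 members, because Slc1a3 and Glul are both expressed by glia and stood at 77.2% and 102% of the WT mean, and Slc7a11 carries a known response element. They are the 250 bases before the RefSeq start on the gene's own strand (GRCm38.p6). The window of Slc1a3 lies on the minus strand at chr15:8710808-8711057, that of Glul on the plus strand at chr1:153899679-153899928, and that of Slc7a11 on the minus strand at chr3:50443614-50443863. Capitals mark CG dinucleotides in Slc1a3 and Glul, and in Slc7a11 they mark TGATGCAA on either strand, the amino acid response element to which ATF4 binds.
Slc1a3: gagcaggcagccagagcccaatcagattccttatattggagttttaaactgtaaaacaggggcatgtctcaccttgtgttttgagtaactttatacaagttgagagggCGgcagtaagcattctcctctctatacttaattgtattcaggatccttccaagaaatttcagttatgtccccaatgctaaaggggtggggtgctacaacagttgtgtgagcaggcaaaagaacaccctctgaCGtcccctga
Glul: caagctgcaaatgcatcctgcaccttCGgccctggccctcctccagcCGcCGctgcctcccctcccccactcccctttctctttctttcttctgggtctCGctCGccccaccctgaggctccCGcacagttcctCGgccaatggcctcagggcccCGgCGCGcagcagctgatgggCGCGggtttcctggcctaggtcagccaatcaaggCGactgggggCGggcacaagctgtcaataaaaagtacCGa
Slc7a11: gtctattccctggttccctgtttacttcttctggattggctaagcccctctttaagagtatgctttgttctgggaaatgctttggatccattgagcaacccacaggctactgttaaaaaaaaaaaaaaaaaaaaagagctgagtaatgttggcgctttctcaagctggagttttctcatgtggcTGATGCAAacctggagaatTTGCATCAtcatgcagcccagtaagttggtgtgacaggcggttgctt
The Slc1a3 window holds 2 CG dinucleotides and a GC content of 44.8%, and the Glul window 15 and 64.8%. The median over 32851 promoter windows was 6 CG dinucleotides and 52.4% GC. Slc7a11 holds TGATGCAA at 66 bases and, on the other strand, at 47 bases before the start, a pair of copies facing opposite ways. That element occurred in 0.791% of all windows. The letters ACGTG, a core found in elements bound by several dimers of the bHLH-PAS family to which NPAS3 belongs, were searched on both strands and were not found in the windows of the 7 members in the RefSeq table, where 16.6% of all windows hold them. No match says only that these letters are not in these 250 bases. The 7 windows include that of Slc1a2, which lies inside the annotated gene. Those of Slc1a1 and Slc25a18 run partly into their genes, with RefSeq starts 86 and 190 bases past the annotated ones. The 7 windows are too few to compare with that share. The table has no window for Slc38a3, and the one for Slc1a2 lies 47779 bases inside the annotated gene, so neither is shown.

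Slc1a2 encodes GLT-1 (EAAT2), the carrier responsible for most glutamate uptake in the mature forebrain. The gene (ENSMUSG00000005089) lies on the plus strand of chromosome 2, from 102658659 to 102790784 in mm10. Its level was 83.7, 78.0 and 72.4 CPM in Npas3+/- replicates 1 to 3 and 103, 123 and 94.7 CPM in WT. The lowest WT library was above the highest Npas3+/- library, and Npas3+/- replicate 3 had the lowest value of all 6. The means were 78.1 ± 5.67 against 107 ± 14.3 CPM (SD, n = 3), a log2 fold change of -0.45 (SE 0.10, 95% interval -0.69 to -0.21). It did not pass in edgeR (adjusted p = 0.276, unadjusted p = 0.00291) and passed in DESeq2 (adjusted p = 0.0152). With any 1 library left out the log2 fold change lay between -0.53 and -0.34.

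Slc1a3 encodes GLAST (EAAT1), the glutamate carrier of radial glia and young astrocytes. The gene (ENSMUSG00000005360) lies on the minus strand of chromosome 15, from 8634124 to 8710764. Its level was 153, 128 and 186 CPM in Npas3+/- replicates 1 to 3 and 207, 208 and 191 CPM in WT. The WT values were close together, whereas the Npas3+/- values were spread out, and replicate 3 came within a few CPM of the lowest WT library. The means were 156 ± 29.2 and 202 ± 9.37 CPM, a log2 fold change of -0.37 (SE 0.12, 95% interval -0.66 to -0.08, adjusted p = 0.328 in edgeR). DESeq2 did not call it either (adjusted p = 0.109). Without Npas3+/- replicate 2, the lowest library, the log2 fold change was -0.25, and without replicate 3 it was -0.52.

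**Figure D1:**
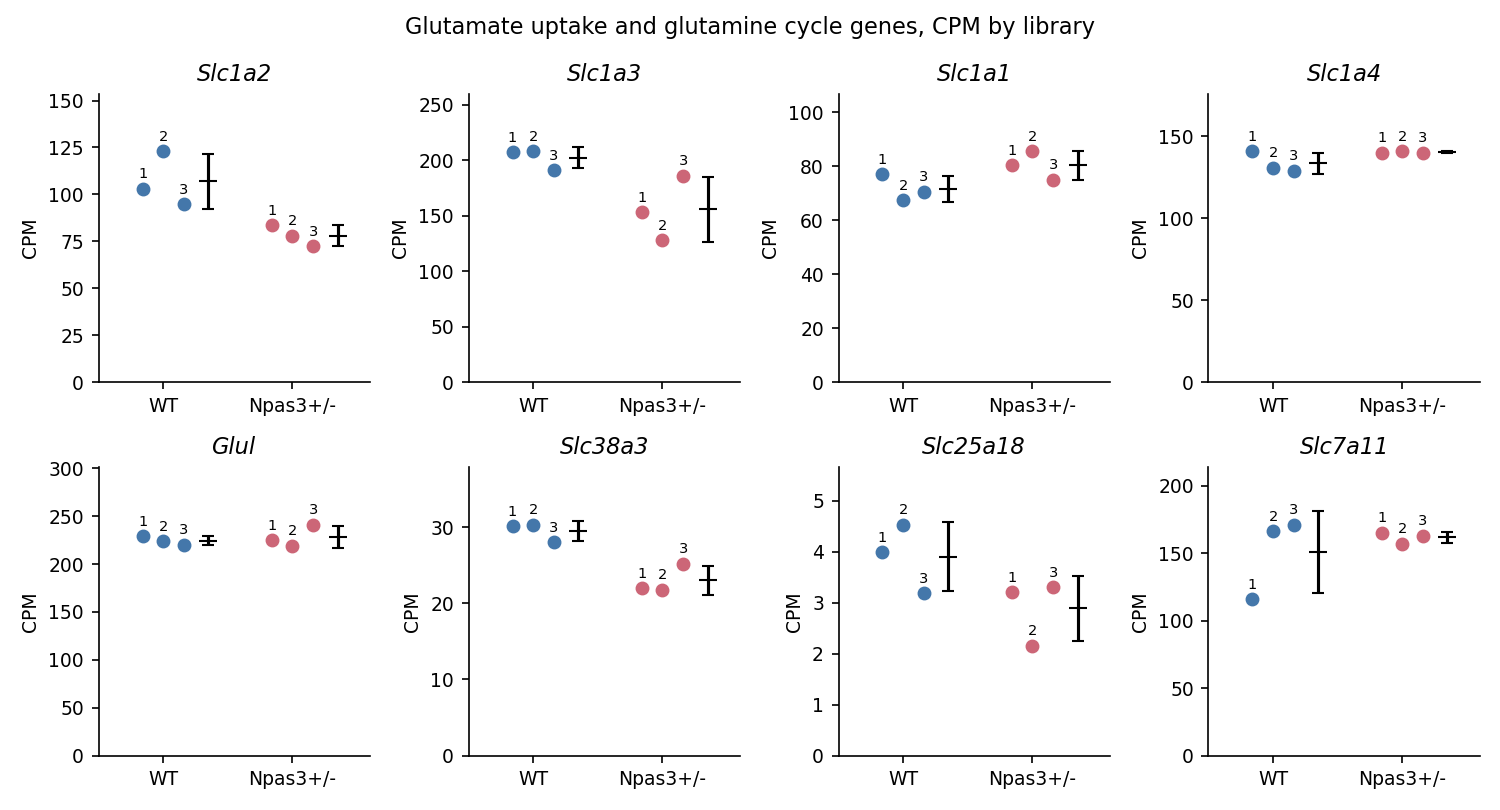
CPM of the 8 genes (y axis, from 0) in each WT and Npas3+/- library (points, numbered by replicate), with the mean and SD of 3 libraries at the right of each group. Slc1a2, Slc1a3 and Slc38a3 have all 3 Npas3+/- points below all 3 WT points, and Glul lies between 219 and 241 CPM in all 6 libraries.

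Glul encodes glutamine synthetase, the enzyme that turns glutamate into glutamine in astroglia. The gene (ENSMUSG00000026473) lies on the plus strand of chromosome 1, from 153899944 to 153909723. Its level was 225, 219 and 241 CPM in Npas3+/- replicates 1 to 3 and 229, 224 and 220 CPM in WT. The groups overlapped, and the highest and lowest of the 6 libraries were both Npas3+/-. The means were 228 ± 11.1 and 224 ± 4.47 CPM, a log2 fold change of 0.03 (SE 0.05, adjusted p = 0.888 in edgeR). The 95% interval ran from -0.09 to 0.15. Its lower bound lay above the point estimates of Slc1a2, Slc1a3 and Slc38a3, but these have intervals of their own. That of Slc1a3, from -0.66 to -0.08, overlapped it. The differences between Glul and these genes were not tested beyond the ratios given below, whose p-values could not fall under 0.05 with 3 libraries against 3. Of its 50-base transcript windows 12.6% also occur in other genes, among them the pseudogene Glns-ps1, with 15 to 32 counts, and Teddm2 on the opposite strand, with 234 to 416 counts, against 15480 to 19753 for Glul.

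Slc38a3 encodes SNAT3 (SN1), through which astroglia release glutamine. The gene (ENSMUSG00000010064) lies on the minus strand of chromosome 9, from 107650634 to 107669530. Its level was 22.0, 21.8 and 25.2 CPM in Npas3+/- replicates 1 to 3 and 30.1, 30.3 and 28.0 CPM in WT. As for Slc1a3, replicate 3 was the Npas3+/- library nearest to WT and replicate 3 the WT library nearest to Npas3+/-. The means were 23.0 ± 1.90 and 29.5 ± 1.28 CPM, a log2 fold change of -0.36 (SE 0.09, 95% interval -0.57 to -0.15). It did not pass in edgeR (adjusted p = 0.276, unadjusted p = 0.00466) and passed in DESeq2 (adjusted p = 0.0389). With any 1 library left out the log2 fold change lay between -0.42 and -0.32.

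Set against Glul within each library, the ratio of Slc1a2 CPM to Glul CPM was 0.343 ± 0.0375 in Npas3+/- and 0.476 ± 0.0631 in WT (SD, n = 3). The ratio of Slc1a3 to Glul was 0.680 ± 0.0953 and 0.900 ± 0.0303, and that of Slc38a3 to Glul 0.101 ± 0.00359 and 0.132 ± 0.00416. In all 3 ratios the Npas3+/- libraries lay below the WT libraries, and the two-sided exact permutation p of each was 0.1, the smallest that 3 against 3 can give. These ratios rest on the same counts as the fold changes. Their numerators had already been seen not to overlap, and Glul varied little. The separation of the ratios was therefore likely beforehand, and their p-values add nothing to the fold changes. The ratio of Slc1a2 to Slc1a3 overlapped, at 0.515 ± 0.114 and 0.528 ± 0.0539 (exact permutation p = 0.9), and was lowest in Npas3+/- replicate 3, at 0.389. Adjusted over these 4 ratios by the Benjamini-Hochberg method, the p-values were 0.133 for each of the ratios to Glul and 0.9 for Slc1a2 to Slc1a3.

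Slc25a18 encodes a mitochondrial glutamate carrier (GC2) found mostly in astroglia in the brain. The gene (ENSMUSG00000004902, plus strand of chromosome 6, 120773578 to 120794336) was the least abundant member. Its level was 3.21, 2.16 and 3.30 CPM in Npas3+/- replicates 1 to 3 and 3.99, 4.53 and 3.19 CPM in WT. The groups overlapped, since WT replicate 3 lay below Npas3+/- replicates 1 and 3. The log2 fold change was -0.43 (SE 0.23, 95% interval -0.97 to 0.11, adjusted p = 0.505 in edgeR). Without Npas3+/- replicate 2 it was -0.26. The interval includes the fold changes of both Slc1a2 and Glul, so at this depth of 166 to 380 counts per library the gene cannot be placed with either. Its exons share 32 bases with Atp6v1e1 on the opposite strand, a proton pump gene with 8798 to 10831 counts, and the use of strand in counting is not given in the sources used here.

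Slc1a1 encodes EAAC1 (EAAT3), the glutamate and cysteine carrier of neurons. The gene (ENSMUSG00000024935) lies on the plus strand of chromosome 19, from 28835049 to 28913960. Its level was 80.4, 85.6 and 75.1 CPM in Npas3+/- replicates 1 to 3 and 77.0, 67.4 and 70.6 CPM in WT. The groups overlapped, as WT replicate 1 lay above Npas3+/- replicate 3. The log2 fold change was 0.17 (SE 0.08, 95% interval -0.01 to 0.35, adjusted p = 0.445 in edgeR). Of its 50-base transcript windows 31.0% also occur in 4430402I18Rik, which overlaps it on the opposite strand and had 110 to 230 counts, against 5067 to 7064 for Slc1a1.

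Slc1a4 encodes ASCT1, a carrier of serine, alanine and other neutral amino acids that does not take glutamate as its main substrate. The gene (ENSMUSG00000020142) lies on the minus strand of chromosome 11, from 20302180 to 20332713. Its level was 140, 141 and 140 CPM in Npas3+/- replicates 1 to 3 and 141, 131 and 129 CPM in WT. It varied least of the 8 members among the Npas3+/- libraries, with an SD of 0.435 CPM. The log2 fold change was 0.07 (SE 0.05, 95% interval -0.05 to 0.19, adjusted p = 0.653 in edgeR).

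Slc7a11 encodes xCT, which exports glutamate in exchange for cystine and so supplies glutathione synthesis. The gene (ENSMUSG00000027737) lies on the minus strand of chromosome 3, from 49892526 to 50443614. Its level was 165, 157 and 163 CPM in Npas3+/- replicates 1 to 3 and 116, 166 and 171 CPM in WT. WT replicate 1 was well below the other 5 libraries, which lay within a narrow range. The log2 fold change was 0.10 (SE 0.13, 95% interval -0.21 to 0.41, adjusted p = 0.816 in edgeR), and without WT replicate 1 it was -0.05. Of its 13912 windows 102 also occur in the alpha-tubulin gene Tuba1a, which had 528023 to 681180 counts, and how reads that match several places were counted is not given in the sources used here. Gclm, the modifier subunit of the enzyme that starts glutathione synthesis, was named after its values were seen and was low in the same library. It stood at 9.40 CPM in WT replicate 1 against 43.6 and 36.1 CPM in the other WT libraries and 38.7 to 44.1 CPM in Npas3+/-.

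**Figure D2:**
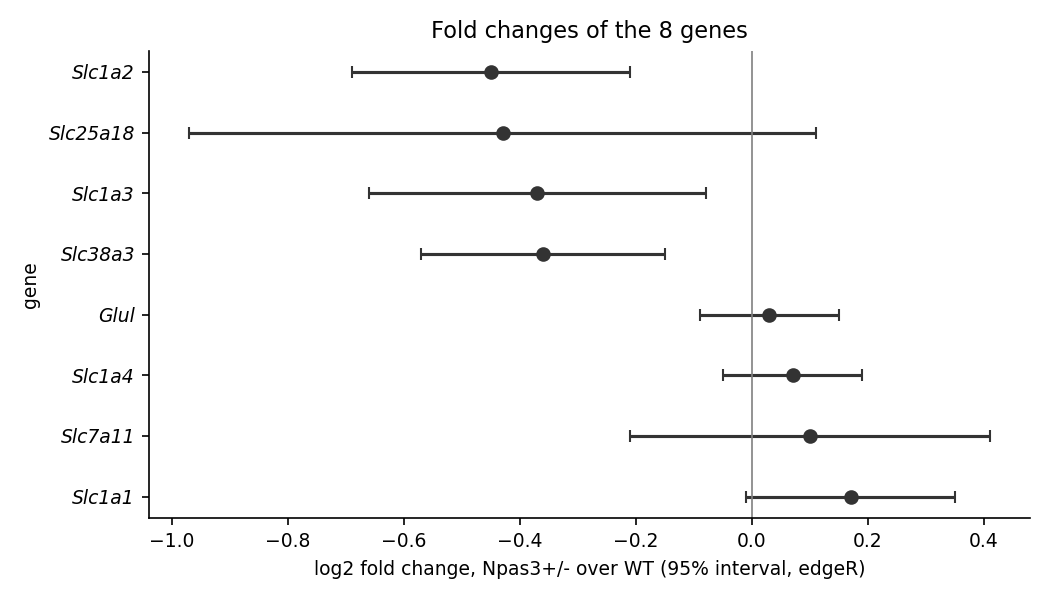
Log2 fold change of Npas3+/- over WT (x axis, points) with its 95% interval from edgeR (bars) for the 8 genes (y axis). The intervals of Slc1a2, Slc1a3 and Slc38a3 lie below 0 before adjustment, and those of the other 5 genes include 0.

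Over the 8 members the median log2 fold change was -0.16, with 4 lower and 4 higher, beside a median of -0.01 over all genes and 51.8% of genes lower. The median was -0.10 without Npas3+/- replicate 2. Per kilobase of annotated exon, the order of mean levels was the same in the 2 genotypes. In WT it was Glul at 67.4 ± 1.35 CPM per kilobase, Slc1a4 at 34.0 ± 1.66, Slc1a3 at 23.6 ± 1.10, Slc7a11 at 10.8 ± 2.16, Slc1a1 at 8.68 ± 0.589, Slc1a2 at 8.12 ± 1.09, Slc38a3 at 5.59 ± 0.243 and Slc25a18 at 2.04 ± 0.351 (SD, n = 3). Slc7a11 overlapped Slc1a1, and Slc1a1 overlapped Slc1a2, in the WT libraries, and the other neighbours did not overlap. In Npas3+/- libraries none of the neighbours overlapped, and Slc1a2 was at 5.94 ± 0.432 beside Slc1a1 at 9.73 ± 0.635 CPM per kilobase. The exon lengths join all annotated isoforms, so levels of genes with long or many isoforms, such as Slc1a2 and Slc7a11, are understated.

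Slc1a2, Slc1a3 and Slc38a3 were read beside markers of astroglia. Of 27 astrocyte and radial glia markers tested, members left out, 23 were on the lower side, with a median log2 fold change of -0.28. Their joint score was 0.14, 0.18 and 0.11 in the WT libraries, in replicate order, and -0.25, -0.29 and 0.10 in the Npas3+/- libraries. Every Npas3+/- score lay below every WT score, so as a covariate the score cannot be fully told apart from genotype in these libraries. Npas3+/- replicate 3 was nevertheless close to the WT libraries. Slc1a3 had the same order among the Npas3+/- libraries, with centred log2 CPM of -0.20, -0.46 and 0.08 against 0.23, 0.24 and 0.12 in WT. Slc1a2 did not follow the score in replicate 3: its centred values were -0.12, -0.22 and -0.33 in Npas3+/- and 0.18, 0.43 and 0.06 in WT. With the glial marker score as a covariate in edgeR, the log2 fold change of Slc1a2 was -0.52 (SE 0.17), that of Slc1a3 -0.05 (SE 0.10), that of Slc38a3 -0.19 (SE 0.12), that of Slc25a18 -0.12 (SE 0.35) and that of Glul 0.12 (SE 0.07), and no member passed (lowest adjusted p = 0.987). With the striatal score they were -0.40 for Slc1a2, -0.20 for Slc1a3, -0.25 for Slc38a3, -0.16 (SE 0.26) for Slc25a18 and 0.08 for Glul. Slc1a3 and Slc25a18 thus lay within 1 SE of 0 with the glial score, and Slc25a18 with the striatal score. The difference between the fold changes of Slc1a2 and Slc1a3 was not tested beyond their ratio, which overlapped.

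**Figure D3:**
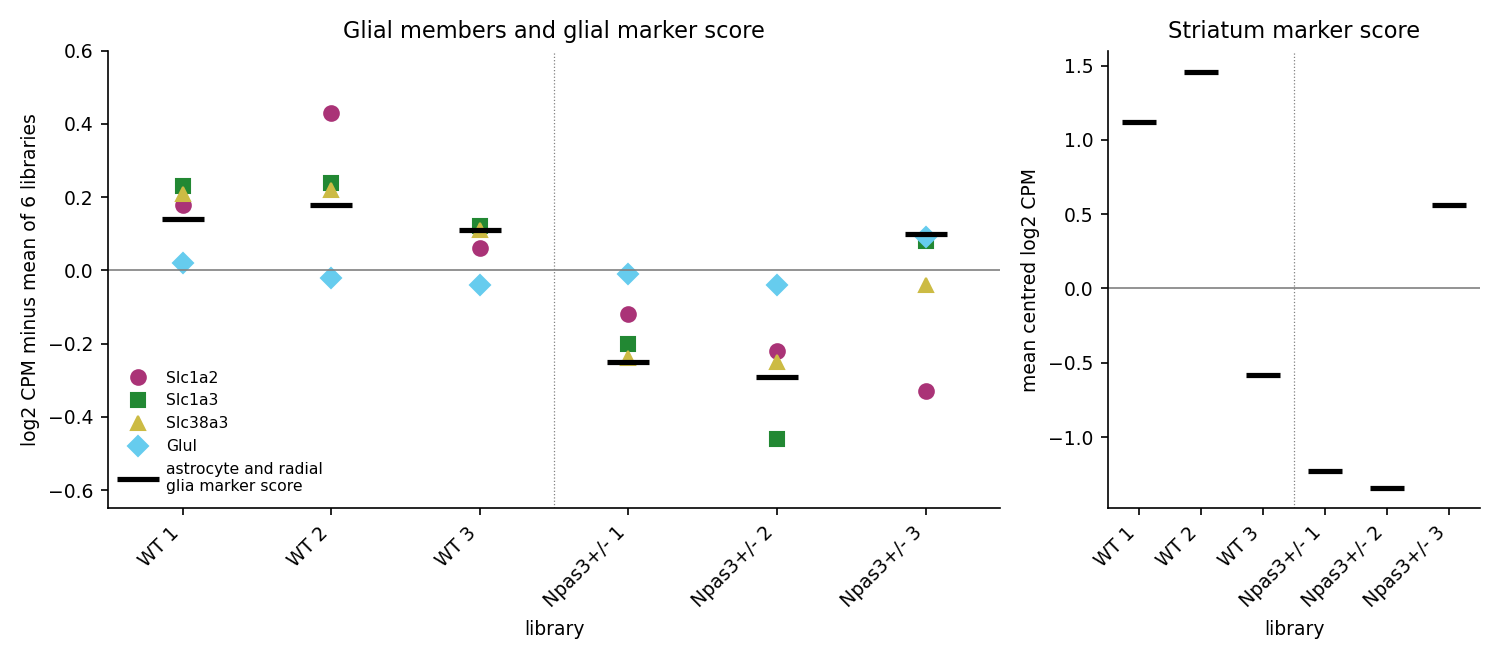
Left, log2 CPM minus the mean of 6 libraries (y axis) for Slc1a2, Slc1a3, Slc38a3 and Glul, with the score of 27 astrocyte and radial glia markers as black bars, in each library (x axis, WT left of the dotted line). Right, the striatal marker score, which runs from -1.34 to 1.46. In Npas3+/- replicate 3 the glial score is 0.10 and Slc1a3 is at 0.08, while Slc1a2 is at -0.33.

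By list, 11 of 14 astrocyte markers were lower (median -0.27) and 12 of 13 radial glia markers (median -0.28). The water channel gene Aqp4 was at 8.66 ± 2.92 CPM in Npas3+/- and 13.7 ± 2.94 CPM in WT, and the astrocyte filament gene Gfap at 13.6 ± 5.12 and 14.8 ± 1.84 CPM, so defining astrocyte markers were present in all libraries. Within the radial glia list the filament gene Vim had the lowest log2 fold change, -0.79 (63.0 ± 7.42 against 109 ± 11.7 CPM). Its adjusted p was 0.17 in edgeR and 5.2e-08 in DESeq2. Fabp7 and Ptprz1 had log2 fold changes of -0.53 and -0.28, each with an adjusted p of 0.27 in edgeR. In DESeq2 their adjusted p was 7.61e-05 and 0.00866. In 6 of the 13 radial glia genes every Npas3+/- value lay below every WT value, which held for 9.18% of all genes. Among the 14 astrocyte markers it held for 0. The other filament gene of the radial glia list, Nes, was at 90.0 ± 10.3 and 89.8 ± 11.6 CPM, and Notch1 and Hes1 had log2 fold changes of -0.05 and -0.06. Neuronal markers had a median of -0.07, oligodendrocyte lineage markers 0.10, endothelial markers -0.03, meningeal markers 0.09 and red blood cell markers 0.03. The medians were -1.13 for striatum, -0.23 for interneurons, -0.29 for microglia and -0.70 for choroid plexus, whose 5 tested genes summed to 1.27 to 2.51 CPM. Its best-known marker, Ttr, went the other way, at 1.41, 1.91 and 0.622 CPM in Npas3+/- replicates 1 to 3 and 0, 0.238 and 0 CPM in WT (adjusted p = 0.29 in edgeR). The part of these cell types in the values of the members was not tested. The 2 covariate fits cannot settle it, as the glial score itself separated the genotypes.

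Around the members, 71 other genes of glutamate and glutamine handling were listed in 10 groups by role, and 68 were tested. Of these 34 were lower and 34 higher with a median of 0, and 0 passed over all genes in edgeR. At an unadjusted p under 0.05 there were 6 lower and 9 higher, where 5.84% and 6.29% of all genes were lower and higher at that level. The groups did not overlap in 5 of them with Npas3+/- as the lower group and in 12 with it as the higher, where 9.18% and 9.70% of all genes had such patterns. DESeq2 called 2 of the 68, Slc6a17 and Gad2, beside 1.99% of all genes.

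Among the 8 glutamine and neutral amino acid carriers 6 were higher, with a median of 0.10. Slc6a17, which loads glutamine and other neutral amino acids into synaptic vesicles, was at 259, 256 and 251 CPM in Npas3+/- replicates 1 to 3 and 198, 123 and 127 CPM in WT. The Npas3+/- libraries were close together and all above WT, and WT replicate 1 was the highest of its group. The log2 fold change was 0.77 (SE 0.17, adjusted p = 0.272 in edgeR and 0.00135 in DESeq2). Slc38a1, through which neurons take up glutamine, was at 357 ± 22.6 against 319 ± 16.7 CPM, a log2 fold change of 0.16 (SE 0.06, adjusted p = 0.373).

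The 11 enzymes of glutamate and glutamine metabolism tested had 7 higher and 4 lower, with a median of 0.12. The alanine aminotransferase genes Gpt, at 8.37 ± 0.465 against 6.48 ± 0.195 CPM, and Gpt2, at 40.9 ± 1.70 against 34.1 ± 3.02 CPM, had the smallest p, with log2 fold changes of 0.37 (SE 0.12) and 0.26 (SE 0.09), and neither passed (adjusted p = 0.316 and 0.324 in edgeR). Of the 4 mitochondrial carriers, Slc25a22, the paralog of Slc25a18 with the same substrate, had a log2 fold change of 0.12 (SE 0.06) and Slc25a13, an aspartate-glutamate carrier, -0.10 (SE 0.20). The vesicular glutamate transporter genes Slc17a6 and Slc17a7, which mark excitatory neurons, had log2 fold changes of -0.22 (SE 0.10) and -0.13 (SE 0.10).

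**Figure D4:**
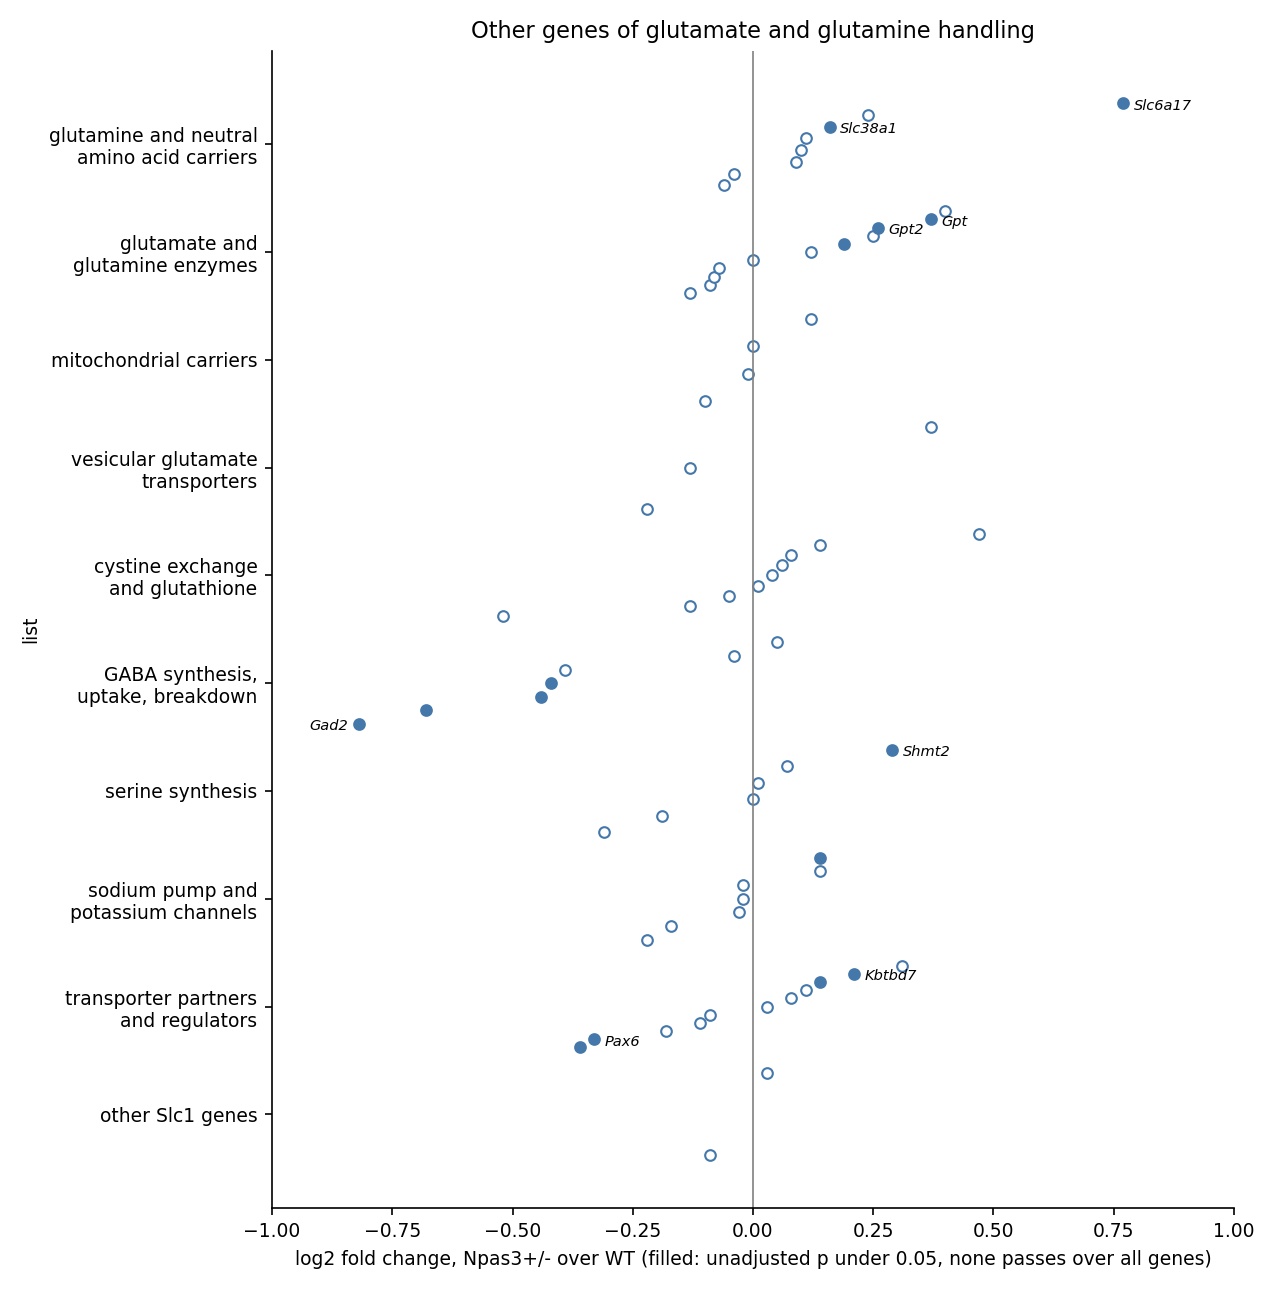
Log2 fold change of Npas3+/- over WT (x axis) for 68 other genes of glutamate and glutamine handling, in 10 lists (y axis). Filled points have an unadjusted p under 0.05, those of the genes described in the text carry their names, and 0 pass over all genes. Slc6a17 lies farthest right at 0.77 and Gad2 farthest left at -0.82.

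GABA is made from glutamate and shares the glutamine supply. Of 7 genes of GABA synthesis, uptake and breakdown 6 were lower, with a median of -0.42. Gad2, a GABA-synthesizing decarboxylase, was at 47.2, 49.9 and 79.1 CPM in Npas3+/- replicates 1 to 3 and 101, 122 and 88.2 CPM in WT, a log2 fold change of -0.82 (adjusted p = 0.276 in edgeR and 0.00512 in DESeq2). The score of this list was -0.35, -0.32 and 0.09 in Npas3+/- and 0.21, 0.45 and -0.07 in WT, and as in the striatal score Npas3+/- replicate 3 was the highest of its group and WT replicate 3 the lowest. The part of striatal or interneuron RNA in this list was not tested.

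The other lists were mixed. Of the 9 partners of the cystine exchanger and of glutathione synthesis 6 were higher (median 0.04). Ggt7 had a log2 fold change of 0.14 (SE 0.07) and Slc7a10, a serine carrier of astroglia, -0.52 (SE 0.25), and Slc3a2, the heavy chain that pairs with xCT, was at 87.4 ± 5.02 and 90.7 ± 3.72 CPM. The 6 genes of serine synthesis had 3 on each side, with Shmt2, a mitochondrial serine hydroxymethyltransferase, at 0.29 (SE 0.09) and Phgdh, the first enzyme of serine synthesis, at -0.31 (SE 0.17). Of the 7 sodium pump and potassium channel genes 5 were lower (median -0.02). Atp1b1, a beta subunit of the sodium pump, had a log2 fold change of 0.14 (SE 0.09). Of 11 partners and regulators of the transporters 5 were lower (median 0.03), with Pax6, a transcription factor of radial glia, at -0.33 (SE 0.11) and Kbtbd7 at 0.21 (SE 0.08). The other tested Slc1 genes, Slc1a5 and Slc1a6, had log2 fold changes of -0.09 (SE 0.16) and 0.03 (SE 0.20). The adjusted p of the genes named in this paragraph was 0.308 or higher in edgeR.

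The genes whose pattern over the 6 libraries was most like a member were taken by the Euclidean distance between centred log2 CPM, among 10413 genes with a mean of at least 10 CPM. For Slc1a2 they were Plekhg1 and Ndst3, both at a distance of 0.144, and the mitochondrial tRNA gene mt-Te at 0.158. All 3 were lowest in Npas3+/- replicate 3, and Plekhg1 stood at 12.5, 12.3 and 10.9 CPM in Npas3+/- and 15.2, 16.9 and 14.5 CPM in WT. For Slc1a3 they were Smpdl3a (0.108), 2810459M11Rik (0.145) and Cpt1a (0.174), a carnitine palmitoyltransferase gene at 22.2, 20.8 and 28.5 CPM in Npas3+/- and 29.0, 32.5 and 29.3 CPM in WT. For Glul they were Bcor (0.0506), Ube2j2 (0.0513) and Uqcrq (0.0544), all with log2 fold changes of 0.01 or 0.02. The smallest distances among so many genes are a description of these 6 libraries.

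**Figure D5:**
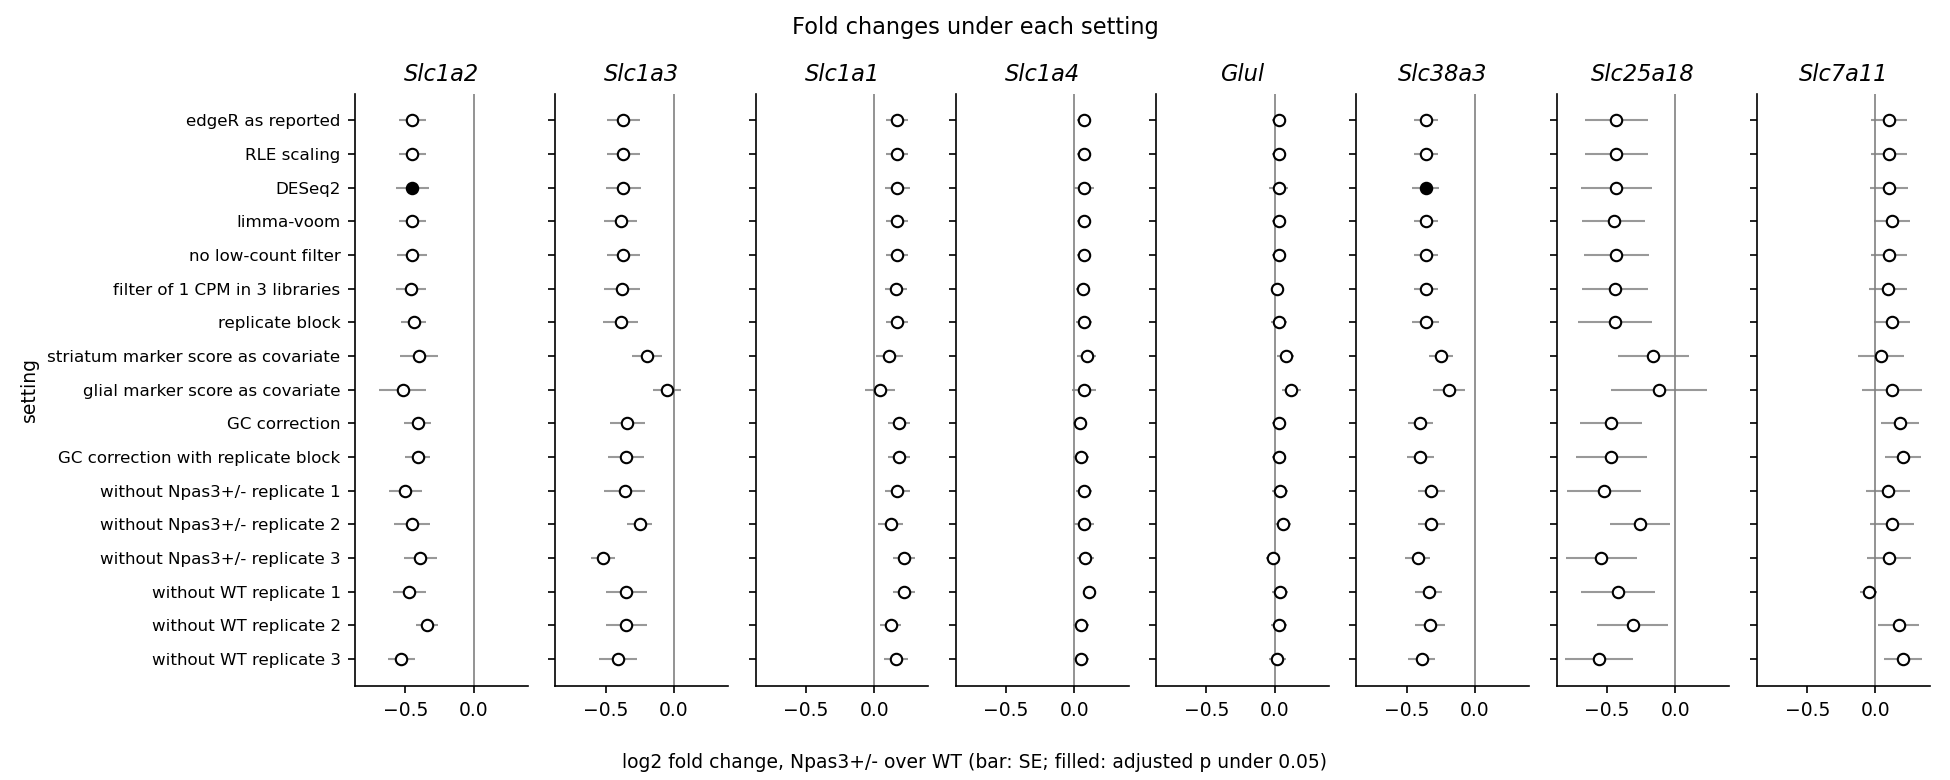
Log2 fold change of Npas3+/- over WT (x axis, bars are SE) of the 8 genes (panels) in the edgeR fit reported and under 16 other settings (y axis). Filled points have an adjusted p under 0.05 and occur for Slc1a2 and Slc38a3 in DESeq2. Slc1a2 stays between -0.53 and -0.34 in all settings, and Slc1a3 between -0.52 and -0.05.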

How the data were processed

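RNA of P0 cortex was measured in 3 Npas3+/- and 3 WT libraries. The values deposited by the authors are whole, unnormalized read counts of each gene. Tools named per the submitters' processing notes were HISAT2 2.1.0, Trimmomatic 0.3.8 and featureCounts, with the mm10 build. The annotation release, strand setting and handling of multiply matching reads are not given in the sources used here. Columns abbreviated NP were taken as Npas3+/-. Gene identifiers were matched without version to GENCODE M21 (53274 of 53379). Counts were analysed with edgeR 4.0.16 in R 4.3.3: filterByExpr, TMM scaling, genotype as the only term, glmQLFTest, Benjamini-Hochberg adjustment over 21244 genes and a threshold of 0.05. SE is the log2 fold change over the square root of F. The prior count for log2 CPM was 2. DESeq2 1.42.0 (without independent filtering), limma-voom 3.58.1, RLE scaling, other filters, a replicate block, GC correction (lowess span 0.4), 2 marker scores as covariates and leaving out each library were alternatives. Steps were tested on simulated data. The members, gene lists and motifs were chosen with earlier results of these data known. Named genes were the members, Npas3, the 2 smallest p in each pathway list and the 3 nearest patterns of Slc1a2, Slc1a3 and Glul. Some genes under this rule are not reported here. Slc3a2, Aqp4, Gfap, Vim, Fabp7, Ptprz1, Nes, Notch1, Hes1, Ttr and Gclm were added after their values were seen. Pc was not matched by symbol, Nherf1 is Slc9a3r1 in this annotation and Slc1a7 did not pass the filter. The intervals are from the edgeR fit. Shared sequence was measured in windows of 50 bases over annotated transcripts.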

Additional observations from a re-analysis of the deposited data

How the results depend on the processing

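Of the 8 members, 0 passed in edgeR under every alternative run with it, including each library left out and a threshold of 0.10, and DESeq2 called 2. Over all genes edgeR called 8, DESeq2 422, the replicate block 3, the GC correction with the block 3, and the striatal covariate 5. With 1 library left out edgeR called 7 to 16 genes, 16 without WT replicate 1. The number of members lower was 4 to 5 with 1 library left out and 4 under the other settings. Their median log2 fold change was -0.20 to -0.10 with 1 library left out, -0.06 with the striatal score and 0 with the glial marker score as a covariate; the cause was not tested. With 1 library left out the log2 fold change was -0.01 to 0.06 for Glul, negative without Npas3+/- replicate 3, and -0.05 to 0.20 for Slc7a11, negative without WT replicate 1. The sign of Slc1a2, Slc1a3, Slc38a3 and Slc25a18 was negative in all 16 alternatives, but with the glial score Slc1a3 was at -0.05 (SE 0.10) and Slc25a18 at -0.12 (SE 0.35), and with the striatal score Slc25a18 was at -0.16 (SE 0.26). Members at an unadjusted p under 0.05 numbered 3 as reported, 1 with the glial score, 2 with the striatal score, 4 with the GC correction, and 2 to 4 with 1 library left out (2 without Npas3+/- replicate 1 or WT replicate 2). Where there were 4, the added member was Slc1a1, which was higher. Its log2 fold change was 0.18 with the GC correction and 0.22 without Npas3+/- replicate 3 or WT replicate 1. The share of all genes at an unadjusted p under 0.05 is given for the fit as reported only. Changes in these counts therefore cannot be read as particular to the members. No pairing of libraries by replicate number was seen. Deviations from the group means correlated at 0.04, -0.03 and -0.09 for numbers 1 to 3, and Npas3+/- replicates 2 and 3 correlated better with other numbers. With 3 libraries per group these correlations cannot exclude that samples were collected or processed in pairs. With the block the log2 fold change was -0.44 for Slc1a2, -0.39 for Slc1a3 and -0.36 for Slc38a3. The biological coefficient of variation over all genes was 26.1%, and Slc25a18 had the fewest counts of the members (166 to 380).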
